A study of Mus musculus with 6 samples.

Results

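Cdh22, Cym, Cdc42ep1 and 2810459M11Rik are 4 of the 14490 genes listed in mRNA-seq of splenic natural killer (NK) cells, and were picked by symbol because they were known to lie far lower in NK cells of mice lacking Mettl3. All 4 symbols were found, each with a single row of values. NK cells were sorted from the spleens of C57BL/6 mice 6 to 10 weeks old, 3 samples per genotype. WT mice were Mettl3fl/fl, that is, they carried the loxP-flanked allele without Cre. The cKO mice carried the same floxed alleles together with Ncr1Cre, a Cre expressed from the locus of Ncr1, the gene of the NK receptor NKp46, so deletion was limited to Ncr1-expressing cells. The number of mice per sample was not given in the sources used here, and p-values therefore measure the spread between these samples, which may be technical.

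METTL3 is the catalytic subunit of the enzyme that places N6-methyladenosine (m6A) on mRNA, a mark read by proteins that act on the stability, export and translation of the message. The mark is placed in a short sequence context of which GGACT is a common form, often near the stop codon and in long exons. No m6A was measured in the samples described here. Cdh22 encodes a type II classical cadherin, a calcium-dependent adhesion receptor known mainly from brain and pituitary. Cym encodes chymosin, the milk-clotting aspartic protease of the newborn stomach. Cdc42ep1 encodes a member of the BORG family, effectors that bind GTP-loaded Cdc42 and septins and shape the cortical cytoskeleton. 2810459M11Rik carries the clone name of an uncharacterised protein-coding gene.

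The 4 genes lie on separate chromosomes of the GRCm38 build. Cdh22 (ENSMUSG00000053166.14) spans chromosome 2 from 165111507 to 165234853 on the minus strand. Cym (ENSMUSG00000046213.9) spans chromosome 3 from 107211293 to 107221732 on the minus strand. Cdc42ep1 (ENSMUSG00000049521.2) spans chromosome 15 from 78842624 to 78850897 on the plus strand, and 2810459M11Rik (ENSMUSG00000026227.11) spans chromosome 1 from 86045863 to 86055456 on the plus strand. Their gene structures differ. The annotated transcript of Cdh22 has 12 exons and encodes 813 amino acids, that of Cym has 9 short exons, the longest of 202 bases, and encodes 379. The transcripts of Cdc42ep1 and 2810459M11Rik each have 3 exons, encode 409 and 287 amino acids, and end in long last exons of 1733 and 2507 bases. An annotated antisense gene, Gm14397, lies inside Cdh22, and Lgals2 overlaps the end of Cdc42ep1 by 38 bases on the other strand. Both are outside the 14490 listed genes, and whether reads were counted by strand was not given in the sources used here.

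The GGACT motif was found on the sense strand of all 4 transcripts, 7 times in Cdh22, 2 times in Cym, 4 times in Cdc42ep1 and 6 times in 2810459M11Rik. For each gene the match nearest the stop codon is shown with 10 bases on either side, since this is the stretch of mRNA where m6A is most often found. Motif letters are in capitals, and the sequences are those of the GENCODE transcripts on GRCm38. The Cdh22 match lies in the coding part of exon 12 (chr2:165112240-165112264, minus strand), the Cym match in the coding part of exon 2 (chr3:107219701-107219725, minus strand), and the matches of Cdc42ep1 (chr15:78849923-78849947, plus strand) and 2810459M11Rik (chr1:86053093-86053117, plus strand) in exon 3, just past the stop codon.
Cdh22: gctcggagcaGGACTtcgcctttct
Cym: gactgctggaGGACTttctgagcag
Cdc42ep1: aaggtgtaagGGACTggccatgggc
2810459M11Rik: ctgggcccctGGACTggccctaacc

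The A of these matches lay 92 bases before the first base of the stop codon in Cdh22 and 1013 bases before it in Cym. In Cdc42ep1 it lay 6 bases after that base and in 2810459M11Rik 18 bases after it. A match within 100 bases of the stop codon was thus present in 3 of the 4 genes, against 25.2% of the 11794 listed genes whose stop codon could be placed, and within 20 bases in 2 of the 4, against 6.67%. With 4 genes this is a description of where the letters stand, not a measurement of methylation. The 20-base window ends just past the distances of 6 and 18 bases, so nothing is read from its share. Per kilobase of transcript the 4 genes held 1.89, 1.62, 1.56 and 1.80 matches in the order of the sequences above, all above the median of 1.02 over the listed genes. At least 1 match is found in 87.7% of the 14105 listed genes with a transcript. The 4 transcripts were also rich in G and C, from 52.8% in Cym to 62.7% in Cdh22, against a median of 49.9%.

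**Figure D1:**
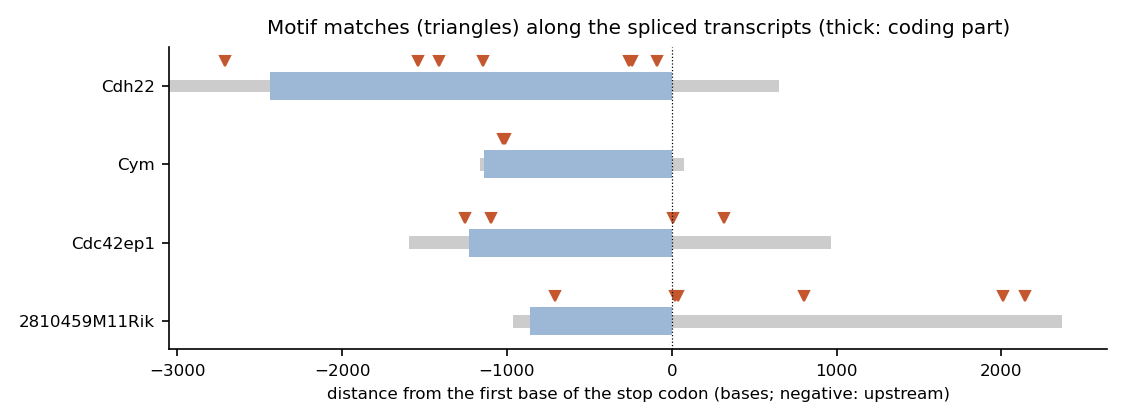
Positions of the 5-letter m6A motif (triangles) along the spliced transcripts of the 4 genes, in bases from the first base of the stop codon (dotted line), with coding parts as thick blue bars and untranslated parts as thin grey bars. Cdc42ep1 and 2810459M11Rik have a match 6 and 18 bases past the line, Cdh22 has 92 bases before it, and the nearer match of Cym lies 1013 bases before it.

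The sequences before the transcription starts are shown as a description. All 4 genes were chosen for a fall in cKO, so their shared direction is not a finding. The RefSeq promoter sequences used here (GRCm38.p6) cover Cdh22, Cym and Cdc42ep1. The stretch upstream of both the RefSeq and the GENCODE start is given, on the strand of the gene, for Cdh22 (chr2:165234854-165234987), Cym (chr3:107221733-107221982) and Cdc42ep1 (chr15:78842397-78842623). Capitals mark TATAAA, or GGGCGG on either strand, with overlapping matches run together.
Cdh22: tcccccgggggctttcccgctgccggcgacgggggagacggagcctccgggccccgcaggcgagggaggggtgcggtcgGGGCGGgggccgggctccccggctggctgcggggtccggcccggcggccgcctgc
Cym: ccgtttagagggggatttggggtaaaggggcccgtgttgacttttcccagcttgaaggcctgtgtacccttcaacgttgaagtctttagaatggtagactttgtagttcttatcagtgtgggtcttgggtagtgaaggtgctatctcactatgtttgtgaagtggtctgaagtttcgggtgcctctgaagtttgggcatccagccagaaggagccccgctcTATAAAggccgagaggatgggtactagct
Cdc42ep1: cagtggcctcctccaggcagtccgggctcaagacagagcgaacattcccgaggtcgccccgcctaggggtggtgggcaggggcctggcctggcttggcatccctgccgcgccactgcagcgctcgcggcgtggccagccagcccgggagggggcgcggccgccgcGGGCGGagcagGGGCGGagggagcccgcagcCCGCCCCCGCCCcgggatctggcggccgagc

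The 3 promoters did not look alike. The Cym promoter held TATAAA at position −29 from its start and 6 CpG dinucleotides in the 250 bases before the start, the same as the median of 6 over 32851 promoters. The Cdh22 and Cdc42ep1 promoters held no TATAAA, 30 and 29 CpG dinucleotides, and 1 and 5 matches to GGGCGG, the GC box that Sp1-type factors bind. All counts are for the 250 bases before the RefSeq start, longer than the stretches shown for Cdh22 and Cdc42ep1. The Cdc42ep1 match at position −14 is therefore not in the printed sequence. TATAAA was present in 12.4% of all promoters and GGGCGG in 32.7%, both strands counted. CCAAT, the RUNX core TGTGGT and the ETS core CCGGAA, present in 33.8%, 14.0% and 12.03% of promoters, were found in none of the 3. These are matches of letters, and nothing was measured of binding at these promoters.

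Mettl3 was read first, as a check of the labels. Its normalized counts were 1303, 1258 and 1192 in the WT libraries (samples 1 to 3, an order kept throughout) against 297, 299 and 405 in the cKO libraries. A normalized count is the number of read fragments on a gene divided by the sample's size factor. Of the 14490 genes, 5307 (36.6%) differed between the genotypes at a limma adjusted p under 0.05 (Benjamini-Hochberg over all listed genes), 2576 higher (17.8%) and 2731 lower (18.8%) in cKO. With samples scaled to equal totals instead, 3487 were higher and 2016 lower, and the median log2 difference of all genes moved from 0.0014 to 0.051. Reads on the listed genes, worked out from the values, ran from 55965515 to 71464042 per sample. All 10 NK markers examined were abundant, with means from 19656 to 257856 normalized counts, and Tbx21 and Il2rb were higher and Ncr1, Klrb1c, Prf1, Gzma and Klrk1 lower in cKO. Markers of B cells, T cells, erythroid cells, platelets and stroma had lower means than these but were not absent. The 7 myeloid markers with values had means from 1027 to 42029 normalized counts, the highest within the range of the NK markers. Their summed level was 57153 to 59919 in WT and 55499 to 57216 in cKO. The summed level of 8 B-cell markers was 775 to 829 in WT and 1191 to 1226 in cKO, with 6 of 8 higher at adjusted p under 0.05 and none lower. The summed level of 7 T-cell markers was 2559 to 2739 in WT and 2247 to 2465 in cKO, with Cd3g lower and none higher. Of 5 erythroid and 4 platelet and stromal markers, none was called in either direction.

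Every cKO value of the 4 genes was below every WT value, a pattern that 23.0% of all listed genes showed, while 45.7% of them had no overlap between genotypes in either direction. These values chose the genes and are given as a description, with no test. In bulk samples, fewer cells expressing a gene and less RNA of it per cell cannot be told apart.

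Normalized counts of Cdh22 were 1531, 1513 and 1584 in the WT libraries against 601, 599 and 583 in the cKO libraries. All 3 samples of each genotype lay close together, and the gap between the genotypes was many times their spread. The WT mean was 1543 ± 36.7 (SD, n = 3) and the cKO mean 594 ± 10.1 (SD, n = 3). The log2 difference, cKO minus WT, was −1.38 with a standard error of 0.066 and a 95% confidence interval from −1.51 to −1.24, and the cKO mean was 38.5% of the WT mean. Taking each cKO sample over each WT sample, the 9 ratios ran only from 36.8% to 39.7%.

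Normalized counts of Cym were 806, 1011 and 796 in the WT libraries against 279, 369 and 325 in the cKO libraries. WT sample 2 stood above its fellows, as did cKO sample 2. The means were 871 ± 121 (SD, n = 3) and 324 ± 45.2 (SD, n = 3), a log2 difference of −1.42 (standard error 0.11, 95% confidence interval −1.64 to −1.20). The cKO mean was 37.2% of the WT mean, close to that of Cdh22, but the 9 ratios were spread from 27.5% to 46.3%.

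Cdc42ep1 was the least abundant of the 4, at 175, 130 and 147 normalized counts in the WT libraries against 41.7, 49.98 and 44.8 in the cKO libraries. Here WT sample 2 was the lowest of its genotype. The means were 151 ± 22.7 (SD, n = 3) and 45.5 ± 4.19 (SD, n = 3), with a log2 difference of −1.70 (standard error 0.22, 95% confidence interval −2.15 to −1.24). The cKO mean was 30.2% of the WT mean, with ratios from 23.9% to 38.5%.

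For 2810459M11Rik the WT libraries held 1361, 1510 and 1265 normalized counts, against 383, 433 and 401 in the cKO libraries. It showed the largest log2 difference of the 4 genes, −1.76 (standard error 0.081, 95% confidence interval −1.93 to −1.59). The means were 1379 ± 123 (SD, n = 3) and 405 ± 25.0 (SD, n = 3), so that 29.4% of the WT level was left, with ratios from 25.4% to 34.2%. The intervals of Cdh22 and 2810459M11Rik did not overlap, whereas the interval of Cdc42ep1 covered the estimates of Cdh22, Cym and 2810459M11Rik.

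**Figure D2:**
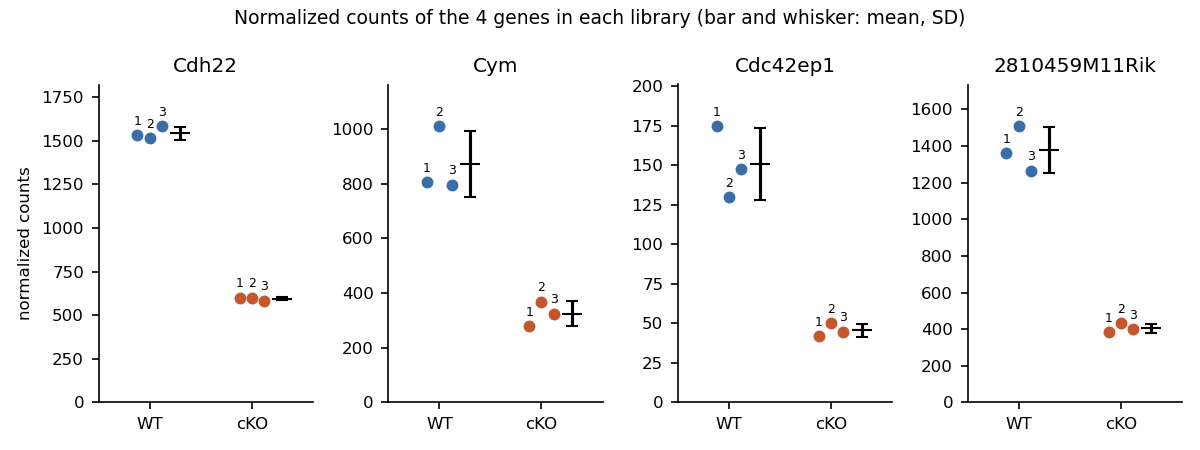
Normalized counts of the 4 genes in each of the 6 libraries (points, numbered by sample), WT in blue and cKO in orange, with the mean and SD of 3 samples beside them, and a vertical axis from 0 that differs between panels. Cdh22 sits near 1543 in WT and 594 in cKO with little scatter, while Cym is scattered from 796 to 1011 in WT.

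The scatter of the samples is given beside the SD that counting alone gives, as a description over 3 samples. The SD of Cdh22 was 0.91 times this counting SD in WT and 0.42 times in cKO. That of Cym was 3.98 times in WT and 2.59 times in cKO. 2810459M11Rik stood at 3.23 times in WT and 1.277 times in cKO, and Cdc42ep1 at 1.81 and 0.64 times. In cKO, sample 2 had the highest level of Cym, Cdc42ep1 and 2810459M11Rik, whereas the remaining Mettl3 was highest in cKO sample 3.

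Per kilobase of exon, which allows levels to be compared between genes, Cym was the most abundant in WT, at 705 normalized counts per kb. Cdh22 and 2810459M11Rik followed at 417 and 414 per kb, and their WT samples overlapped, so these neighbours in the order were not told apart. Cdc42ep1 was far lower, at 58.8 per kb. In cKO the order was Cym at 262, Cdh22 at 160, 2810459M11Rik at 122 and Cdc42ep1 at 17.8 per kb, with no overlap between samples of neighbouring genes. Among all listed genes the WT levels per kb stood at percentile 72.6 for Cym, 61.7 for Cdh22, 61.6 for 2810459M11Rik and 27.5 for Cdc42ep1. In cKO the percentiles were 52.1, 42.8, 38.1 and 12.2 in the same order.

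Only 100 of the 14490 genes (0.690%) had a log2 difference below −1. By log2 difference over all 14490 genes, 2810459M11Rik ranked 2, Cdc42ep1 4, Cym 20 and Cdh22 24, Mettl3 being the lowest. A second order kept genes that passed limma's test, with no overlap between genotypes and a name neither repeated nor a date. A mean of at least 1 CPM (a read count scaled to library size) was also asked. In it the 4 genes took ranks 2 to 5 in the same order. The 4 genes were chosen for large falls on this contrast, so both sets of ranks restate that choice and test nothing. The next places in the filtered order were close behind Cdh22. AL589871.1, a name with no match in the annotation used here, had a log2 difference of −1.36, and Bcl2a1b, an anti-apoptotic Bcl2 relative with near-identical gene copies among which reads may be split, had −1.35. Ly6c2, a surface protein of myeloid and lymphoid cells with the near-identical neighbour Ly6c1, had −1.34. Zfp184, a zinc finger protein, and Enkur, a protein of sperm and cilia, both had −1.29.

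**Figure D3:**
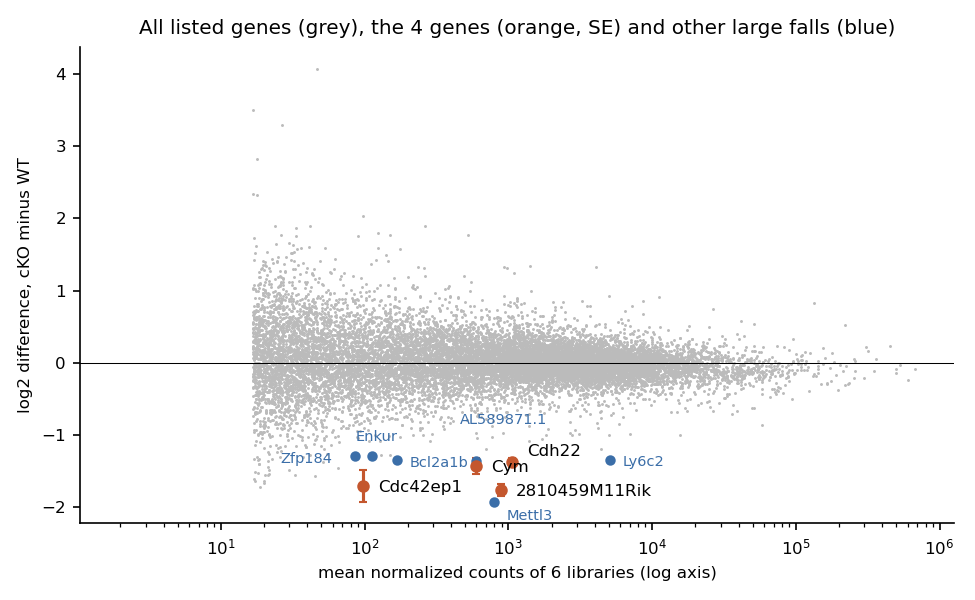
Log2 difference between cKO and WT against the mean normalized count of the 6 libraries (log axis) for all 14490 listed genes (grey), with the 4 genes in orange (whiskers: standard error) and in blue Mettl3 and the 5 next falls among genes that passed the test, reached 1 CPM and had no overlap, so that some unmarked genes lie lower. The 4 genes lie between −1.38 and −1.76, above Mettl3 at −1.92.

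To see which genes had the most similar profile, log2 values over the 6 libraries were centred on each gene's own mean and compared by their root mean square difference, among 12169 genes with a mean of at least 50 normalized counts. Since the genotype difference dominates these profiles, genes with a fall of similar size come out as most alike. Cdh22 was closest to Ly6c2 (root mean square difference 0.041 on the log2 scale), then to AL589871.1 (0.069) and to Serpinb9b (0.10), a serine protease inhibitor of the family that includes granzyme B inhibitors. Each of the other 3 had 2 of the 4 genes among its 3 closest. The 4 genes were chosen for large falls on these same values, so that count tests nothing. For Cym the closest were Ly6c2 (0.16), Cdh22 (0.18) and 2810459M11Rik (0.19). For Cdc42ep1 they were 2810459M11Rik (0.18), AL589871.1 (0.21) and Cdh22 (0.22). For 2810459M11Rik they were Cdc42ep1 (0.18), Cym (0.19) and Mettl3 itself (0.19).

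Of the genes most like Cdh22, Ly6c2 showed 7260, 7521 and 7281 normalized counts in the WT libraries against 2957, 2977 and 2780 in the cKO libraries. It lay at 39.5% of its WT level, against 38.5% for Cdh22. Serpinb9b averaged 6162 ± 147 (SD, n = 3) for WT against 2701 ± 31.0 (SD, n = 3) for cKO, a log2 difference of −1.19 (standard error 0.040).

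Relatives of Cdh22 and the catenins were read next. Of 40 other cadherin and catenin genes, 16 had values here, of which 0 were higher, 3 lower and 13 not called, a lower share near the 18.8% of all genes, with a median log2 difference of −0.20 against 0.0014 over all genes. The 3 that fell were Jup, Ctnna1 and Pkp3, all on the cytoplasmic side of junctions. Jup, which encodes plakoglobin, fell from a mean of 1491 ± 66.2 (SD, n = 3) to a mean of 1094 ± 51.7 (SD, n = 3), a log2 difference of −0.45 (limma adjusted p = 1.74e-06). Ctnna1, which encodes the α-catenin that links cadherins to actin, had −0.20 (limma adjusted p = 0.000657), and the plakophilin gene Pkp3 had −0.21 (limma adjusted p = 0.00226). Ctnnb1, the gene of β-catenin, averaged 6733 ± 171 (SD, n = 3) for WT against 6534 ± 49.2 (SD, n = 3) for cKO, a log2 difference of −0.043 that did not pass (limma adjusted p = 0.377) and changed sign with equal totals, at 0.0068.

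Among the 3 receptor genes through which lymphocytes meet cadherins, only Klrg1 passed the test, beside 36.6% called over all genes. Whether any of these receptors binds Cdh22 was not tested. Klrg1 encodes an inhibitory receptor of mature NK cells that binds some classical cadherins on other cells. Its normalized counts were 8946, 9193 and 8545 in the WT libraries against 6267, 6409 and 5541 in the cKO libraries, with no overlap. The log2 difference was −0.55 (standard error 0.044, limma adjusted p = 1.39e-10). Of 10 NK maturation markers, 4 were higher (S1pr5, Cx3cr1, Prdm1 and Ltb), 5 not called and only Klrg1 lower. Over all genes, 17.8% were higher and 18.8% lower. The list mixes markers of earlier stages, such as Cd27, with later ones, such as Itgam (CD11b), so its count gives no direction of maturation. Itgae, the gene of CD103, and Itgb7 encode the 2 chains of an E-cadherin receptor. Itgae and Itgb7 had differences of −0.18 and −0.050 that did not pass (limma adjusted p = 0.548 and 0.235).

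The Cdc42 module around Cdc42ep1 was mixed in direction. Of 52 effectors and regulators with values, out of 58 on the list, 4 were higher, 13 lower and 35 not called. The called share was near the 36.6% of all genes, with a median log2 difference of 0.014. A smaller share was higher and a larger share lower than the 17.8% and 18.8% of all genes. With equal totals, 11 were higher and 11 lower. Cdc42 itself, the small GTPase that Cdc42ep1 binds, fell from a mean of 43722 ± 950 (SD, n = 3) to a mean of 35983 ± 788 (SD, n = 3), a log2 difference of −0.28 (limma adjusted p = 2.88e-08). The exchange factor gene Vav3 (−0.42), Baiap2, which encodes the membrane-bending effector IRSp53 (−0.28), the kinase gene Cdc42bpg (−0.48), the polarity gene Pard6g (−0.56), the related GTPase gene Rhoq (−0.25) and Arhgdib, a GDP-dissociation inhibitor gene (−0.19), also fell, with limma adjusted p from 5.27e-06 to 0.000146. Fnbp1, which encodes an F-BAR protein that joins Cdc42 to actin assembly, rose by 0.17 on the log2 scale (limma adjusted p = 6.39e-05).

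Within the BORG family, Cdc42ep1 shared its direction with Cdc42ep4 and not detectably with the others. Normalized counts of Cdc42ep4 were 334, 326 and 344 in the WT libraries against 234, 214 and 215 in the cKO libraries. All 3 cKO samples were below all WT samples, and the log2 difference was −0.60 (95% confidence interval −0.85 to −0.35, limma adjusted p = 0.000283). Cdc42ep3, the most abundant of the family here, averaged 3039 ± 115 (SD, n = 3) for WT against 3018 ± 34.0 (SD, n = 3) for cKO, a difference of −0.0093 with an interval from −0.10 to 0.081. Cdc42ep2, near the lower end of the listed levels at 35.4 ± 6.07 (SD, n = 3) and 35.3 ± 7.27 (SD, n = 3), had a difference of −0.012, but its interval from −0.70 to 0.67 leaves room for a sizeable change. Both signs turned positive with equal totals, at 0.040 and 0.036. Cdc42ep5 was not analysed here.

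**Figure D4:**
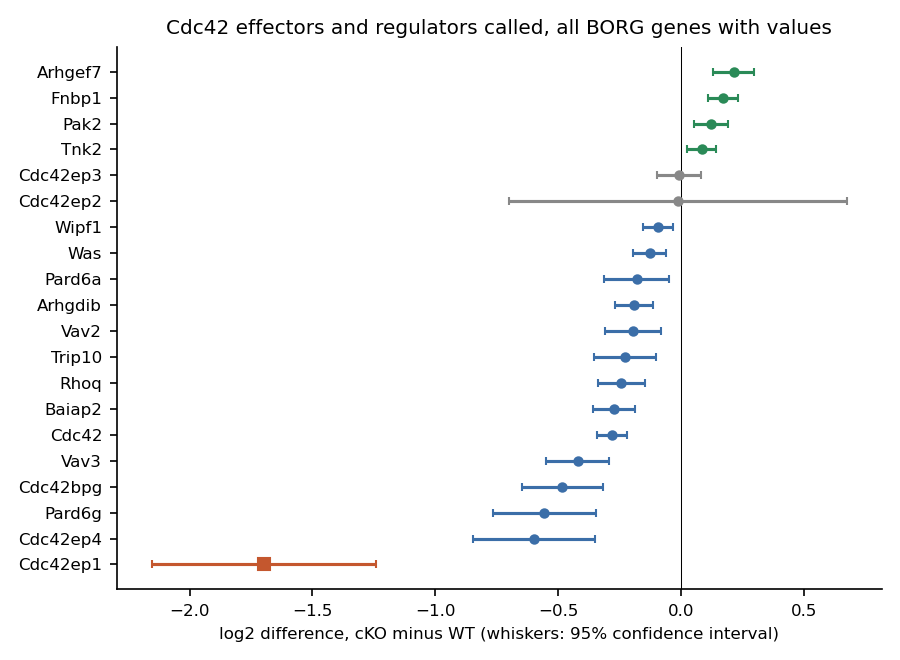
Log2 differences, cKO minus WT, with 95% confidence intervals, for the Cdc42 effectors and regulators with a limma adjusted p under 0.05 (green higher, blue lower), for Cdc42ep2 and Cdc42ep3, which were not called (grey), and for Cdc42ep1 (orange square). Cdc42ep1 lies at −1.70, and the next lowest, Cdc42ep4, at −0.60.

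Cym belongs to the A1 family of aspartic proteases. Of 9 other family genes, 4 had values, of which 1 was higher and 3 not called, beside 36.6% called over all genes, and with 4 genes nothing is read from the count. Ctsd, the lysosomal cathepsin D gene, averaged 24139 ± 397 (SD, n = 3) for WT against 25629 ± 865 (SD, n = 3) for cKO, a log2 difference of 0.086 (limma adjusted p = 0.0323). That call was lost, with an adjusted p of up to 0.18, when WT sample 1, WT sample 3, cKO sample 1 or cKO sample 2 was left out. Ctse, the gene of the endosomal cathepsin E, had 1694 ± 37.0 (SD, n = 3) and 1568 ± 98.4 (SD, n = 3), a difference of −0.11 that did not pass (limma adjusted p = 0.125). Bace1, the gene of a membrane-bound member of the family, averaged 230 ± 32.1 (SD, n = 3) for WT against 176 ± 46.3 (SD, n = 3) for cKO, a difference of −0.41 that did not pass (limma adjusted p = 0.0682), and it was called lower with the replicate block, without WT sample 2 and without cKO sample 1. Napsa, which encodes napsin A, had −0.13 and did not pass (limma adjusted p = 0.105).

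The genes around each of the 4 genes were read to see whether whole regions moved. Of 28 listed genes whose bodies lay within 200 kb of Cdh22, Cym, Cdc42ep1 or 2810459M11Rik, 5 were higher, 6 lower and 17 not called, shares near the 17.8% higher and 18.8% lower of all genes. The lowest log2 difference among the 28 was −0.20, that of Itm2c. Beside Cdh22, Ncoa5 rose by 0.37 on the log2 scale (limma adjusted p = 1.41e-06) and Elmo2 fell by 0.089 (limma adjusted p = 0.0232), while the nearest genes, Cd40 and Slc35c2, at distances of 38558 and 41700 bases, had −0.13 and −0.056 and did not pass. The call of Elmo2 was lost with equal totals, without WT sample 2 and without cKO sample 1 (adjusted p of up to 0.296). Beside Cym, Kcna3, AI504432 and Lamtor5 fell by 0.14 to 0.15 (limma adjusted p from 0.0291 to 0.0374). All 3 of these calls were lost with equal totals and without WT sample 2 (adjusted p of up to 0.151 for Kcna3 and 0.19 for the others). Kcna2, the nearest gene on the left at 96287 bases, had 0.086 and did not pass.

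Around Cdc42ep1, 4 of 9 neighbours were higher and 1 lower, beside 17.8% higher and 18.8% lower over all genes. With 9 genes nothing is read from the count. Mfng, a glycosyltransferase gene of the Notch pathway, rose by 0.19 (limma adjusted p = 0.000162), Nol12 by 0.32, Triobp by 0.12 and H1f0 by 0.18, while Lgals1, the galectin-1 gene, fell by 0.15 (limma adjusted p = 0.00144). The call of Triobp was lost without WT sample 2 and without cKO sample 2, and that of H1f0 without cKO sample 1, with adjusted p of up to 0.075 and 0.074. The nearest genes, Card10 and Gga1, had −0.17 and −0.069 and did not pass. Beside 2810459M11Rik, Itm2c fell by 0.20 (limma adjusted p = 5.23e-05), whereas Psmd1, whose body begins only 8930 bases away, averaged 2436 ± 119 (SD, n = 3) for WT against 2476 ± 67.5 (SD, n = 3) for cKO, a difference of 0.024. Gpr55, the nearest on the other side, had 0.54 and did not pass (limma adjusted p = 0.0514).

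**Figure D5:**
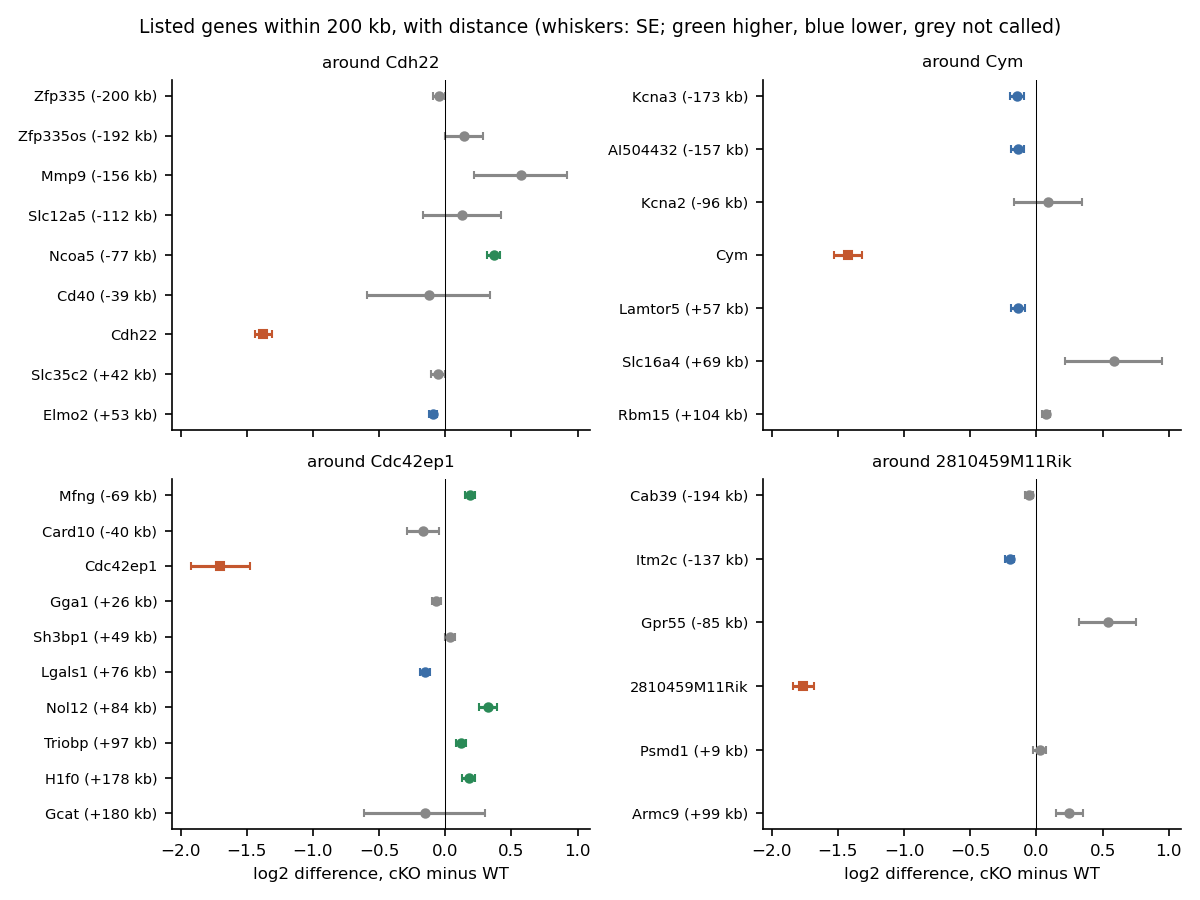
Log2 differences, cKO minus WT, with standard errors, for the 4 genes (orange squares) and all listed genes within 200 kb of each, ordered by position with the distance in kb beside the name (green higher, blue lower, grey not called). The lowest neighbour, Itm2c, lies at −0.20, whereas the 4 genes lie at −1.38 to −1.76.

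Markers of other cell types were set beside the 4 falls. The summed B-cell markers moved opposite to the 4 genes, with no overlap between genotypes. The lower sum of the T-cell markers rested on Cd3g, which fell from 802 ± 11.1 (SD, n = 3) to a cKO mean of 478 ± 23.4 (SD, n = 3), while Trac and Cd8a had log2 differences of 0.17 and 0.66 that did not pass (limma adjusted p = 0.075 and 0.0514). Of the 7 myeloid markers with values, 3 were higher and 2 lower in cKO, beside 17.8% higher and 18.8% lower over all genes, the lower ones being Lyz2 and Ly6c2, of which the latter has the profile most like Cdh22 and is also expressed by NK cells. Ncr1, whose locus carries the Cre, averaged 22394 ± 286 (SD, n = 3) for WT against 16918 ± 230 (SD, n = 3) for cKO (log2 difference −0.40, limma adjusted p = 3.56e-11). The part of any of these in the levels of Cdh22, Cym, Cdc42ep1 and 2810459M11Rik was not tested.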

How the data were processed

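Splenic NK cells of WT and cKO mice were compared, 3 samples each. Reads were mapped by the authors to GRCm38 (Hisat2) and summed over genes (featureCounts), and the deposited signal is such a sum after division by a size factor from DESeq2. The submitters' processing notes name HISAT2 2.0.5, featureCounts 1.5.0-p3 and DESeq2 1.16.1, while the study's methods name other versions. The other columns hold the authors' mean, fold changes and p-values and were not used. Values under 3000 were whole multiples of a single step per sample within 0.02, from which reads were worked out.

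Values were taken as log2(value + 1), a minimum of 1 was asked of 3 or more samples (all 14490 genes passed), and genotype was fitted with limma 3.58.1 in R 4.3.3 with its trend option. Two-sided p-values were adjusted over all genes by the Benjamini-Hochberg method and called at 0.05. The steps were tested on simulated data. Positions and transcripts came from GENCODE, which matched 14110 names (97.4%), with 19 names being spreadsheet dates. Septin genes, among such names, were not analysed here. Counting error assumes Poisson reads.

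The 4 genes, the lists and the tests were chosen with earlier results of these data known. Genes named are the 4, Mettl3, called list members (at most 8 by adjusted p) with direct partners, called and nearest neighbours within 200 kb, the 3 most alike, and the 5 next falls. Markers, Itgae, Itgb7, Bace1, Napsa and Lgals2 with Gm14397 were named outside this rule, with their values known.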

Additional observations from a re-analysis of the deposited data

How the results depend on the processing

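Results were recomputed with a pseudocount of 0.1, without the filter, with 1 CPM asked of 3 samples, with equal totals, by limma-voom, with a replicate block, and without each replicate. A count test on recovered reads was not run. All 12 alternatives kept the direction of the 4 genes, which tests nothing, since the genes were chosen for large falls on these values. With equal totals Cdh22 moved to −1.33, by more than the SD between its log2 replicates but within its confidence interval. Leaving out replicates gave −1.39 to −1.36 for Cdh22, −1.52 to −1.31 for Cym, −1.80 to −1.59 for Cdc42ep1 and −1.82 to −1.69 for 2810459M11Rik. With equal totals, 1 cadherin or catenin and 11 Cdc42 genes were higher, and 8 neighbours were higher and 2 lower, a scaling that shifts every gene upward. Leaving out replicates gave 0 to 1 cadherins or catenins higher, 0 to 2 aspartic proteases called (0 to 1 higher and 0 to 1 lower), and 6 to 11 neighbours called, 2 to 6 of them lower, with 6 called when WT replicate 2 was dropped and 7 when cKO replicate 1 was. The cause of these was not tested.

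Replicate numbers gave no clear pairing of the samples. Deviations of same-numbered samples correlated at −0.024, 0.12 and 0.045 over 11753 genes, and those of different numbers at −0.10 to 0.062. The value of replicate 2, 0.12, lay above that range, so whether some samples are paired was not settled. With the replicate block, 5543 genes were called in place of 5307, and 2 aspartic proteases in place of 1, 1 of them lower. It changed no count of the other lists or the neighbours by over 1.5 times. With 3 samples per genotype, Cdc42ep1, the least abundant of the 4 genes, has the widest interval.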
